A study of Mus musculus with 10 samples.

Results

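A set of 8 genes of microglial purinergic signalling was followed across isolation methods: the receptor genes P2ry12, P2ry13, P2ry6, Gpr34, P2rx4, P2rx7 and Adora3, and the ectonucleotidase gene Entpd1. They were chosen by symbol, and the 8 symbols matched 9 of the 37447 gene rows of the deposited expression table, because Adora3 is listed on 2 rows. RNA was sequenced from brainstem microglia of mice aged 6 weeks in 3 groups, each library being named a biological replicate in the labels. Laser-captured GFP microglia (LCM_GFP, 4 libraries, 3 female and 1 male) were cut from sections, sorted GFP microglia (FACS_GFP, 3 libraries, 2 female and 1 male) came from dissociated tissue, and sorted wild-type microglia (FACS_WT, 3 male libraries, strain C57BL/6) were sorted in the same way. The strain of the GFP animals and the promoter that drives GFP are not given in the sources used here. Captured tissue was fixed in paraformaldehyde, frozen and extracted with proteinase K and acid phenol, whereas sorted cells passed a Percoll gradient and were extracted with TRIzol, so method, fixation and extraction cannot be told apart. Wild-type sorted libraries also differ from the GFP libraries in sex, so GFP genotype and sex cannot be fully separated.

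Microglia sense nucleotides that leak from active or injured cells. ATP opens the P2X channels, its breakdown product ADP acts on the P2Y12 and P2Y13 receptors, UDP acts on P2Y6, and adenosine acts on receptors such as A3. P2Y12 steers microglial processes towards injury and is widely used to tell resident microglia from other macrophages, while CD39, the product of Entpd1, shapes all of these signals by cutting ATP and ADP down to AMP.

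Each of the 8 genes had more than 1 FPKM in every library, and 7 of the 8 were called lower in laser-captured than in sorted microglia. Expression is given as FPKM, fragments scaled to transcript length and to the mapped fragments of the library, so levels can be compared between genes. Against sorted GFP microglia, P2ry12, P2ry13, P2ry6, Gpr34, P2rx4, P2rx7 and Adora3 were called lower and Entpd1 was not (limma on log2(FPKM + 1), two-sided, Benjamini-Hochberg adjusted p under 0.05 over all 13403 genes tested). Over all genes, 19.6% were called lower and 12.5% higher in that comparison. Against sorted wild-type microglia the same 7 genes were called lower, where 19.1% of 13415 genes were called lower and 12.3% higher. No member was called higher in either comparison. Between FACS_GFP and FACS_WT no member was called in either direction, beside 0.0339% of 11814 genes called higher and 0.0762% called lower; Gpr34, Adora3, its second row and Entpd1 had an unadjusted p under 0.05 there, as did 13.1% of all genes tested.

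These calls, like those over all genes, changed with the number of sorted libraries and with scaling. Without any 1 of the FACS_GFP libraries, none of the 7 genes passed, with adjusted p between 0.0565 and 0.165; these fits called 2.39% to 2.59% of all genes lower, against 19.6% with all libraries. Without any 1 of the FACS_WT libraries, likewise none passed the comparison with wild-type cells, with adjusted p between 0.0534 and 0.157, and 2.57% to 3.02% of all genes were called lower. The log2 differences themselves stayed negative for all 7 genes in each of these fits. When libraries were scaled by median ratios, 1 gene (Adora3) was called against FACS_GFP and 0 against FACS_WT, beside 3 and 6 of 18 other microglial genes. Median ratio scaling called 9.17% of all genes lower and 14.3% higher against FACS_GFP, and 9.11% lower and 14.1% higher against FACS_WT. Without captured library 4, 4 genes were called against FACS_GFP and 5 against FACS_WT, where 21.2% and 19.9% of all genes were called lower. With sex as a covariate 4 and 0 were called, beside 16.0% and 6.54% of all genes called lower.

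The differences of the 8 genes ran beside lower levels of other microglial transcripts. The median log2 difference of the 8 genes was -1.56 against FACS_GFP and -1.74 against FACS_WT, while a list of 18 other microglial genes had medians of -1.65 and -1.87, with 12 and 16 of its 18 genes called lower. The median of all genes tested was -0.60 against FACS_GFP and -0.59 against FACS_WT. Summed FPKM of the 18 microglial genes ranged from 2591 to 6143 in captured libraries, against 9391 to 14156 in sorted ones. In bulk libraries, fewer cells of a type and less RNA per cell cannot be told apart.

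Markers of oligodendrocytes and their precursors, neurons, astrocytes and endothelium were mostly higher in captured libraries. Markers near 0 in sorted libraries, such as Opalin, Cldn5 and Slc17a6, passed the 1 FPKM filter only through captured libraries. Such genes could be called higher but not lower. Oligodendrocyte markers summed to 2641 to 7553 FPKM in captured libraries and 21.2 to 32.8 FPKM in sorted ones, with 9 of 10 genes called higher against FACS_GFP. Neuronal markers summed to 719 to 2095 FPKM in captured and 2.10 to 9.95 FPKM in sorted libraries, with 9 of 10 called higher. Astrocyte markers summed to 447 to 871 FPKM and 21.6 to 33.2 FPKM, with 7 of 9 called higher. Slc1a3, at 19.4 to 30.5 FPKM in sorted libraries, made up most of their astrocyte sum. It was not called, at -0.30 against FACS_GFP (adjusted p = 0.708, limma) and 0.06 against FACS_WT (adjusted p = 0.950). Oligodendrocyte precursor markers summed to 81.6 to 129 FPKM in captured and 0.690 to 1.055 FPKM in sorted libraries. Endothelial markers summed to 80.4 to 200 FPKM in captured and 14.9 to 24.6 FPKM in sorted libraries, with 5 of 7 called higher; Pecam1 was not called, at -1.29 against FACS_GFP (adjusted p = 0.1002, limma). Immediate early genes, which respond to stimulation and to cell handling, summed to 57.8 to 133 FPKM in captured libraries, against 1705 to 3091 FPKM in sorted ones. Perivascular macrophage markers were low in all libraries, at 2.25 to 19.4 FPKM in captured and 22.8 to 50.2 FPKM in sorted ones, and 2 of 7 of them, Mrc1 and Pf4, were called lower in both comparisons. Blood leukocyte markers summed to 0.101 to 31.4 FPKM in captured and 36.1 to 75.1 FPKM in sorted libraries. In captured libraries 6 of the 9 leukocyte markers, Cd3e, Cd79a, Ms4a1, Nkg7, S100a8 and S100a9, were at 0. In sorted GFP libraries 4 were at 0, Cd3e, Ms4a1, Nkg7 and S100a8, and in sorted wild-type libraries 2, Cd3e and Nkg7. Cd79b had 0, 31.2, 2.19 and 0.264 FPKM in captured libraries 1 to 4 and 34.3 to 74.0 FPKM in sorted ones. It was called lower in both comparisons and made up most of the sorted sums. The B cell genes Cd79a and Ms4a1 reached at most 0.494 and 0.0358 FPKM in any library. The part of these lists in the differences of the purinergic genes was not tested.

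Captured libraries 1 and 3 stood apart. A list of 4 embryonic globin and cell cycle genes summed to 2.59 to 3209 FPKM in captured libraries, against 1.83 to 8.81 FPKM in sorted ones. The embryonic globin gene Hba-x reached 1853 and 660 FPKM in them, against 2.16 and 0.225 FPKM in captured libraries 2 and 4, and it was listed at 0 in every sorted library. With captured libraries 2 and 4 alone, 6 of the 8 genes were called lower against FACS_GFP and 7 against FACS_WT, in fits that called 35.4% and 32.8% of all genes lower. The gene lost was Gpr34, at a log2 difference of -1.42 and an adjusted p of 0.0503 (limma).

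**Figure D1:**
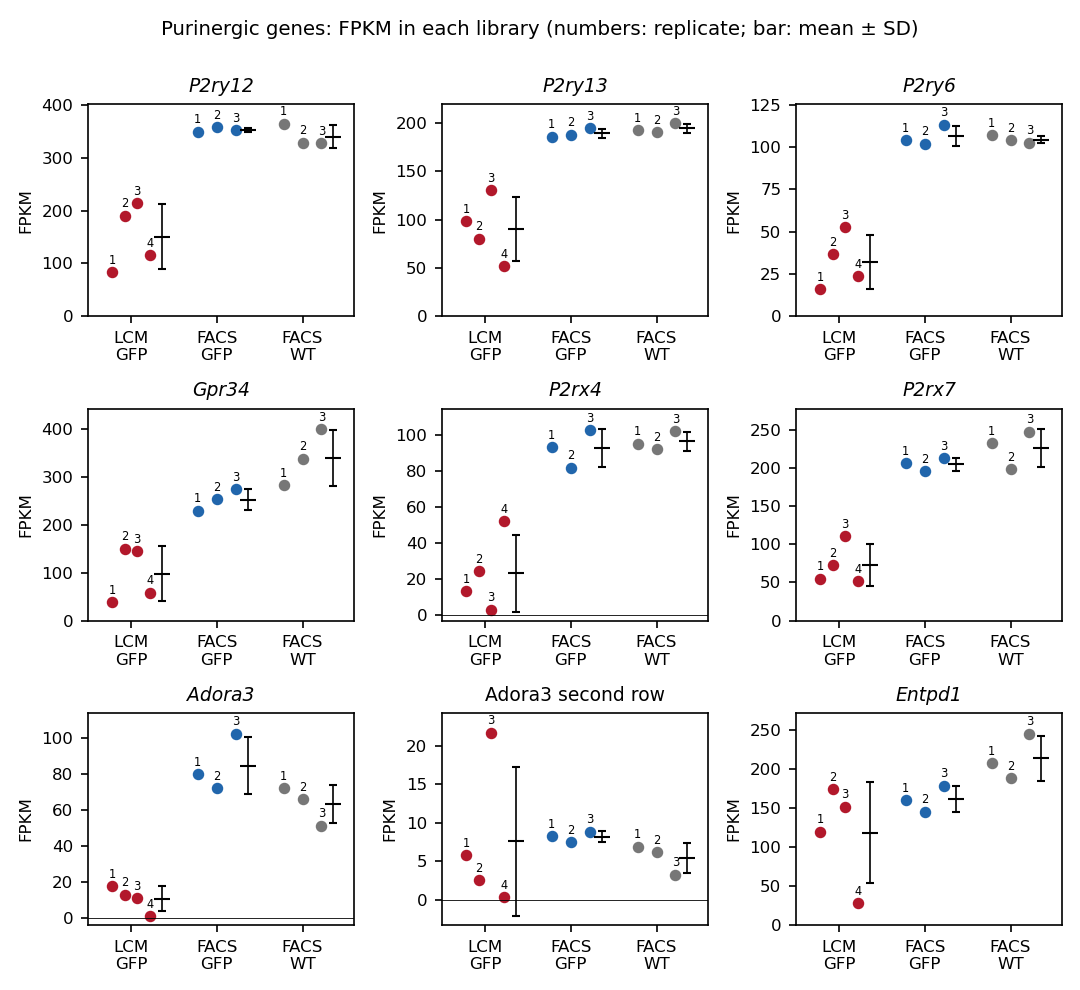
FPKM of the 8 genes and of the second Adora3 row in each library (vertical axes, linear, each from 0 or just below), by group (LCM GFP, FACS GFP and FACS WT, left to right). Points are libraries, numbered by replicate, and bars give the mean and SD; for P2ry12, P2ry13, P2ry6, Gpr34, P2rx4, P2rx7 and Adora3 every captured library lies below every sorted one.

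P2ry12 encodes the ADP receptor of resting microglia and lies on chromosome 3 (mm9, 59020192 to 59066753, minus strand). It had 83.7, 190, 214 and 116 FPKM in LCM_GFP, against 349, 357 and 351 FPKM in FACS_GFP and 364, 328 and 327 FPKM in FACS_WT. The highest captured library stayed well under the lowest sorted one, and captured libraries 1 and 4 were the lowest. P2ry12 averaged 151 ± 61.2 FPKM in LCM_GFP (SD, n = 4), 353 ± 4.11 FPKM in FACS_GFP and 340 ± 21.1 FPKM in FACS_WT (SD, n = 3 each). The log2 difference was -1.32 (SE 0.37, adjusted p = 0.0299, limma) against FACS_GFP and -1.26 (SE 0.38, adjusted p = 0.0368) against FACS_WT. Spread between sorted GFP libraries was 1.16% of the mean for P2ry12, against 40.6% in captured libraries.

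P2ry13 encodes the second microglial ADP receptor and is the neighbour of P2ry12 (mm9, chromosome 3, 59011817 to 59014804, same strand). Its FPKM were 98.1, 80.3, 130 and 52.0 in LCM_GFP, against 186, 188 and 194 in FACS_GFP and 193, 190 and 199 in FACS_WT. Again the groups did not overlap, and captured library 4 was lowest. The log2 difference of P2ry13, -1.14 (SE 0.36, adjusted p = 0.0431, limma) against FACS_GFP and -1.17 (SE 0.36, adjusted p = 0.0409) against FACS_WT, was the smallest of the 7 called genes. The 2 ADP receptor genes did not follow each other within the captured group: P2ry13 stood at 1.17, 0.422, 0.610 and 0.450 times P2ry12 in captured libraries 1 to 4. In sorted libraries that ratio stayed between 0.525 and 0.609.

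Because P2ry12 and P2ry13 are neighbours on 1 strand, are both ADP receptor genes and were both called lower, their promoters are shown side by side. Each window runs from 250 bases before to 50 bases after the transcription start, 5′ to 3′ on the minus strand, from RefSeq (GRCm38.p6), a later build than the mm9 of the expression table. Capitals mark GAGGAA or its reverse complement TTCCTC, 1 form of the sites bound by the myeloid factor PU.1. Other forms were not searched, so a window without capitals may still hold such a site.
P2ry12, chr3:59262936-59263235: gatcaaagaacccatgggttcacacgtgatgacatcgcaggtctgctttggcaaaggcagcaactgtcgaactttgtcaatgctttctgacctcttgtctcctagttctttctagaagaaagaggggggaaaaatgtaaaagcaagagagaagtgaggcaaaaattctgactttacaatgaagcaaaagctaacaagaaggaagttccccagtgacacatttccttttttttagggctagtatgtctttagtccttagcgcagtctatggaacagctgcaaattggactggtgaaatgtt
P2ry13, chr3:59210833-59211132: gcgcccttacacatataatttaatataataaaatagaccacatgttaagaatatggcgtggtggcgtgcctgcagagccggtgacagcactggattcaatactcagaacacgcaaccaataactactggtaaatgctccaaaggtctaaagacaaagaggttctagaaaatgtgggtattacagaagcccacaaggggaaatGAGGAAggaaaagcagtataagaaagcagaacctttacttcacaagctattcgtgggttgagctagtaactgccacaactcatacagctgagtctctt
The P2ry13 window held 1 match, beginning 48 bases before the start, and the P2ry12 window held 0. Among 32851 promoter windows of the same length 28.3% held at least 1 match, so a match is common. The AP-1 motif TGANTCA, searched on both strands, had 0 matches in both windows and occurred in 7.81% of all windows; the Adora3 window and 1 of the P2rx7 windows held 1 match each, and the other member windows 0. Of the 8 genes, 6 had a window in the RefSeq table, in 8 windows in all. Adora3 and both windows of P2rx7 held 1 match each to GAGGAA or TTCCTC, 1 of the 2 Entpd1 windows held 2, and P2rx4 held 0.

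P2ry12 and P2ry13 both lie within the span of Med12l, a Mediator subunit gene on the opposite strand, and exons of P2ry12 and Med12l overlap in GENCODE M21. Med12l had 6.39 to 16.1 FPKM in captured libraries and 5.20 to 9.29 FPKM in sorted ones. It was thus low beside P2ry12 in each library. Whether the counting used strand is not given in the sources used here, so reads in the shared exons cannot be assigned.

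P2ry6 encodes a UDP receptor linked to phagocytosis by microglia (mm9, chromosome 7, 108086151 to 108112905). It had 16.1, 36.6, 52.5 and 23.8 FPKM in LCM_GFP, against 104, 102 and 113 FPKM in FACS_GFP and 107, 104 and 103 FPKM in FACS_WT. All captured libraries lay far below all sorted ones, and the 6 sorted libraries were close to each other. The log2 difference was -1.82 (SE 0.44, adjusted p = 0.0168, limma) against FACS_GFP and -1.80 (SE 0.44, adjusted p = 0.0178) against FACS_WT. The ratio of P2ry6 to P2ry12 was 0.192, 0.193, 0.246 and 0.206 in captured libraries 1 to 4, against 0.286 to 0.323 in sorted ones, without overlap. For 7 such ratios an exact two-sided permutation test over libraries gave p = 0.0571 against FACS_GFP and 0.0286 against FACS_WT for P2ry6, or 0.3 and 0.2 after adjustment over the 7 ratios. With 4 libraries against 3 the smallest p this test can give is 0.0286.

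Gpr34 encodes a receptor for lysophosphatidylserine that is grouped with the P2Y12-like receptors (mm9, chromosome X, 13209214 to 13217984). It had 38.8, 150, 145 and 58.0 FPKM in LCM_GFP, against 229, 253 and 274 FPKM in FACS_GFP and 282, 338 and 399 FPKM in FACS_WT. Gpr34 was lowest in captured libraries 1 and 4, and each of the 3 groups lay below the next without overlap. The log2 difference was -1.57 (SE 0.51, adjusted p = 0.0483, limma) against FACS_GFP and -1.99 (SE 0.52, adjusted p = 0.0220) against FACS_WT. The gene sits inside Cask, a scaffold protein gene on the opposite strand, which had 142, 38.3, 24.5 and 61.3 FPKM in captured libraries 1 to 4 and 41.1 to 58.9 FPKM in sorted ones. Cask was highest in the captured library where Gpr34 was lowest, and exons of the pair do not overlap in GENCODE M21.

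P2rx4 encodes an ATP-gated channel known from spinal microglia in neuropathic pain (mm9, chromosome 5, 123157592 to 123179747). It had 13.2, 24.3, 3.02 and 52.3 FPKM in LCM_GFP, against 93.4, 82.0 and 103 FPKM in FACS_GFP and 95.5, 92.3 and 102 FPKM in FACS_WT. The groups did not overlap, but captured libraries spread 17.3-fold between library 3 and library 4. The log2 difference was -2.49 (SE 0.80, adjusted p = 0.0457, limma) against FACS_GFP and -2.55 (SE 0.79, adjusted p = 0.0410) against FACS_WT. With captured libraries 2 and 4 alone, P2rx4 differed by -1.35 (adjusted p = 0.0380) and -1.41 (adjusted p = 0.0315). Over the 18 alternatives run in each comparison, its adjusted p lay between 0.00837 and 0.570 against FACS_GFP and between 0.00555 and 0.581 against FACS_WT.

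P2rx7 encodes the ATP-gated channel that opens at high ATP and triggers the NLRP3 inflammasome, and it lies next to P2rx4 (mm9, chromosome 5, 123093919 to 123141441). It had 55.0, 72.8, 111 and 52.1 FPKM in LCM_GFP, against 206, 196 and 213 FPKM in FACS_GFP and 233, 198 and 248 FPKM in FACS_WT. Captured library 3 was the highest of its group and still well below all sorted libraries. P2rx7 had the lowest adjusted p of the 8 genes in both comparisons: its log2 difference was -1.55 (SE 0.34, adjusted p = 0.0116, limma) against FACS_GFP and -1.69 (SE 0.35, adjusted p = 0.00908) against FACS_WT. Captured library 3, highest for P2rx7, was lowest for its neighbour P2rx4.

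Adora3 encodes the A3 adenosine receptor, and its main row (ENSMUSG00000000562, mm9, chromosome 3, 105673775 to 105711846) showed the largest difference of the 8 genes. It had 17.97, 13.2, 11.4 and 1.37 FPKM in LCM_GFP, against 80.0, 72.2 and 102 FPKM in FACS_GFP and 72.4, 66.4 and 51.5 FPKM in FACS_WT. Every captured library was far below every sorted one, and captured library 4 was the lowest. The LCM_GFP mean was 0.129 times the FACS_GFP mean and 0.173 times the FACS_WT mean. The log2 difference was -3.17 (SE 0.72, adjusted p = 0.0129, limma) against FACS_GFP and -2.76 (SE 0.72, adjusted p = 0.0222) against FACS_WT. Against FACS_GFP this was at percentile 2.57 of the log2 differences of all genes tested, counted from the lowest, where P2ry12 was at percentile 28.4.

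The second Adora3 row (ENSMUSG00000074344, 105673824 to 105726954) overlaps the first on the same strand and carries the symbol Tmigd3 in the reference gene table. It had 5.76, 2.56, 21.6 and 0.348 FPKM in LCM_GFP, against 8.26, 7.48 and 8.85 FPKM in FACS_GFP and 6.92, 6.22 and 3.28 FPKM in FACS_WT. Captured library 3 was above all other libraries and captured library 4 below them, so the groups overlapped. Neither comparison was called, at log2 differences of -0.82 (adjusted p = 0.502, limma) and -0.26 (adjusted p = 0.845), and with captured libraries 2 and 4 alone the difference from FACS_GFP was -2.07 (adjusted p = 0.0225, the lowest of 18 alternatives, whose highest was 0.878). The split of fragments between the overlapping Adora3 rows is uncertain, so the level of either row is too.

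Entpd1, which encodes the ATP- and ADP-hydrolysing enzyme CD39, was not called in either comparison with captured cells (mm9, chromosome 19, 40686855 to 40816092). It had 120, 175, 152 and 28.0 FPKM in LCM_GFP, against 160, 146 and 179 FPKM in FACS_GFP and 208, 188 and 246 FPKM in FACS_WT. Captured libraries 2 and 3 lay among the FACS_GFP libraries, while captured library 4 was far below; against FACS_WT the captured libraries did not overlap. The log2 difference was -0.72 against FACS_GFP (SE 0.61, 95% interval -2.13 to 0.70, adjusted p = 0.395, limma) and -1.12 against FACS_WT (SE 0.61, interval -2.52 to 0.29, adjusted p = 0.193). Leaving out captured library 4 brought the differences to -0.13 and -0.53. Groups without overlap were found for 7 of the 8 genes against FACS_GFP and 8 of 8 against FACS_WT, where 31.2% and 29.6% of all genes tested had every captured library below every sorted one.

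In sorted cells P2ry12 had the highest mean of the 8 genes and Adora3 the lowest, and the order between them differed in part between the sorted groups. In FACS_GFP the order of mean FPKM was P2ry12, Gpr34, P2rx7, P2ry13, Entpd1, P2ry6, P2rx4 and Adora3, with means of 353, 252, 205, 189, 162, 107, 92.8 and 84.9. Neighbours in that order had ranges apart down to P2ry6, while P2ry6 with P2rx4 and P2rx4 with Adora3 overlapped. In FACS_WT, P2ry12 at 340 ± 21.1 FPKM and Gpr34 at 339 ± 58.4 FPKM (SD, n = 3) could not be ordered, and the ranges of P2rx7, Entpd1 and P2ry13 overlapped from one to the next. In LCM_GFP the order of means was P2ry12, Entpd1, Gpr34, P2ry13, P2rx7, P2ry6, P2rx4 and Adora3, and every neighbouring pair overlapped.

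The make-up of the set differed more between captured libraries than between sorted ones. Summed FPKM of the 8 genes was 443, 742, 819 and 383 in captured libraries 1 to 4, against 1408, 1396 and 1531 in FACS_GFP and 1555, 1506 and 1675 in FACS_WT. Entpd1 took 27.1%, 23.6%, 18.6% and 7.30% of that sum in captured libraries, against 10.4% to 11.7% in FACS_GFP and 12.5% to 14.7% in FACS_WT. P2rx4 took 2.97%, 3.28%, 0.369% and 13.6% of it in captured libraries, against 5.87% to 6.73% in FACS_GFP. Entpd1 was thus the largest item of captured library 1. Among captured libraries the Entpd1 share had the widest range in percentage points, and the P2rx4 share the widest as a ratio of highest to lowest.

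**Figure D2:**
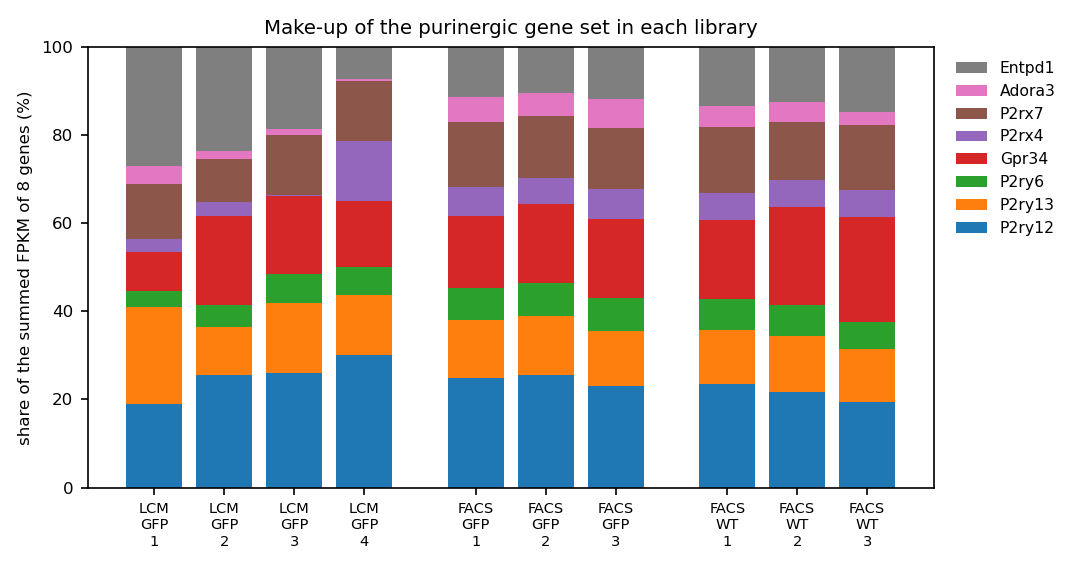
Share of each of the 8 genes in their summed FPKM (vertical axis, percent) in each library (horizontal axis, LCM GFP, FACS GFP and FACS WT from left to right). The sorted libraries are alike, while the Entpd1 share runs from 7.30% to 27.1% and the P2rx4 share from 0.369% to 13.6% among captured libraries.

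Each library was also scaled to the median of the 18 microglial genes. As deposited, the 8 genes had median differences (-1.56 and -1.74) near those of that list (-1.65 and -1.87). Smaller differences on this scale therefore follow from the scaling and are no separate result. Against FACS_GFP the log2 difference on that scale was 0.37 for P2ry12, 0.55 for P2ry13, 0.13 for P2rx7, 0.11 for Gpr34, 0.96 for Entpd1, -0.17 for P2ry6, -0.85 for P2rx4 and -1.62 for Adora3. None was called, and the adjusted p ranged from 0.207 for Adora3 to 0.872 for Gpr34. Intervals were wide, at 95% from -3.57 to 0.33 for Adora3 and from -0.46 to 2.38 for Entpd1. Over the 18 alternatives run, the adjusted p against FACS_GFP lay between 0.00282 and 0.207 for Adora3 and between 0.0187 and 0.872 for Gpr34. Against FACS_WT, values on the scale were -1.10 for Adora3, -0.81 for P2rx4, -0.20 for Gpr34, -0.03 for P2ry6, 0.10 for P2rx7, 0.53 for P2ry12, 0.62 for P2ry13 and 0.67 for Entpd1, again with 0 called. The directions of P2ry12, P2ry13, P2rx7 and Entpd1 against both sorted groups, and of Gpr34 against FACS_GFP, therefore depended on this scaling. Median ratio scaling moved the median of all genes to -0.10 against FACS_GFP, and scaling to microglial genes moved it to 0.91.

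P2ry12 stood above the microglial median in each captured library, by 0.34, 0.07, 0.06 and 0.08 on the log2 scale, and between -0.65 and 0.0001 around it in sorted ones. Adora3 stood at -1.82, -3.68, -4.06 and -5.54 from the microglial median in captured libraries 1 to 4, against -2.45 to -2.15 in FACS_GFP and -3.29 to -2.53 in FACS_WT. Captured library 1 was thus above the sorted libraries for Adora3 on this scale, and captured libraries 2, 3 and 4 were below them.

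**Figure D3:**
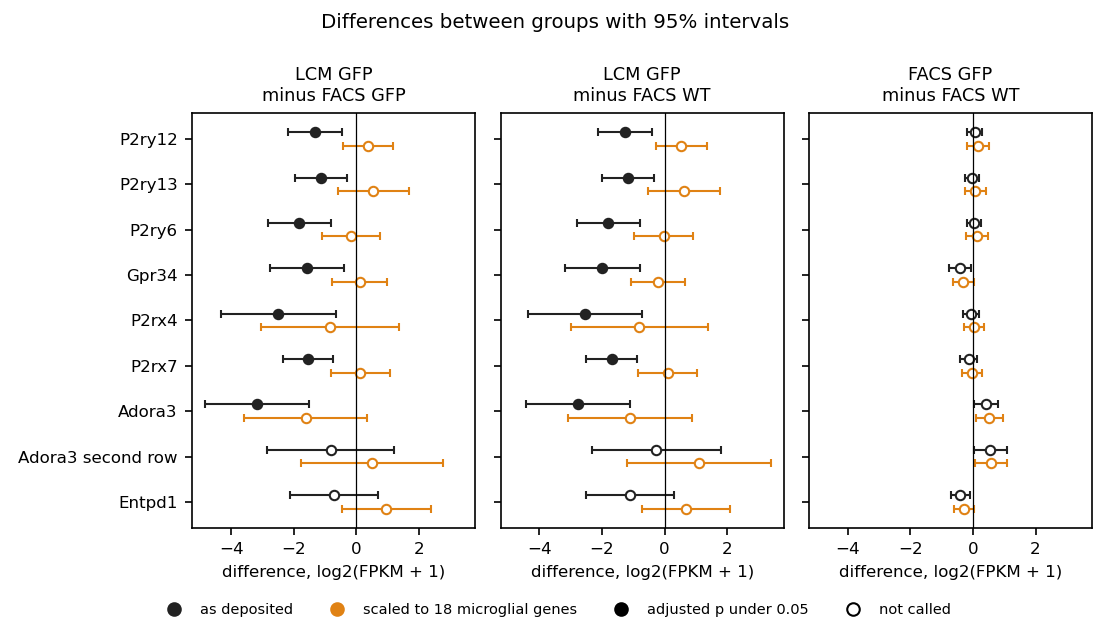
Difference of group means on the log2(FPKM + 1) scale (horizontal axis) with 95% intervals for the 8 genes and the second Adora3 row (vertical axis), in 3 comparisons. Black shows values as deposited and orange values scaled to 18 microglial genes; filled points have an adjusted p under 0.05, and all filled points are as-deposited differences between captured and sorted cells.

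Between the sorted groups the ADP receptor genes, P2ry6 and the P2X genes were close. The log2 difference of FACS_GFP from FACS_WT was 0.05 for P2ry12 (95% interval -0.20 to 0.31, limma), -0.04 for P2ry13 (-0.27 to 0.19), 0.03 for P2ry6 (-0.20 to 0.25), -0.06 for P2rx4 (-0.33 to 0.20) and -0.14 for P2rx7 (-0.41 to 0.14). Those intervals are not adjusted for the number of genes tested, so differences beyond their ends could also have gone uncalled. Gpr34 and Entpd1 were lower in every FACS_GFP library than in every FACS_WT library, by -0.42 (unadjusted p = 0.0235, adjusted p = 0.324) and -0.40 (unadjusted p = 0.0185, adjusted p = 0.315), and 9.29% of all genes tested showed such a gap. Adora3 pointed the other way, by 0.41 (unadjusted p = 0.0394, adjusted p = 0.357), with overlap between FACS_GFP library 2 and FACS_WT library 1. None of these 3 passed the threshold, and the sorted groups also differed in sex.

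The authors' deposited table of group comparisons, made with their own test on the same libraries, marked none of the 8 genes as significant in any pair of groups. The share of all genes that it marks as significant is not given here, so this count stands without a background. For captured over sorted GFP microglia, the authors' deposited table gave log2 fold changes from -2.89 for Adora3 to -1.21 for Entpd1, and -1.81 for P2ry12. The locus of its Adora3 entry (105673775 to 105726954) covers both Adora3 rows, so this entry may not match the main row alone. Its P2ry12 and P2ry13 entries share a locus (58791091 to 59148178) that covers both genes and Med12l. The locus of its Gpr34 entry (13094205 to 13428493) spans Cask. Whether those entries match the single genes is uncertain too. The lowest q-value of these 8 genes in the authors' deposited table was 0.263, for P2ry6 and Adora3, and P2ry12 had a q-value of 0.419 at a p-value of 0.0380. For sorted wild-type over captured microglia, where the authors' deposited table has captured cells as the denominator, its log2 fold changes ran from 1.57 to 2.51 and its lowest q-value was 0.178, for Gpr34. Between captured and sorted cells, directions in the authors' deposited table were those of the limma fit, and its calls were not.

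Other genes of the purinergic system were described from 8 lists holding 50 genes. Of these, 27 were expressed highly enough to test against FACS_GFP: 5 were called higher and 4 lower, with a median log2 difference of -0.74. Over all genes tested there, 12.5% were called higher and 19.6% lower, with a median of -0.60. Against FACS_WT 27 were tested, with 5 called higher and 4 lower and a median of -0.92. All genes tested had 12.3% called higher and 19.1% lower there, with a median of -0.59. Between FACS_GFP and FACS_WT 25 were tested and 0 called, beside 0.0339% of all genes called higher and 0.0762% lower.

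Among the other P2X channel genes, 1 of 5 could be tested. P2rx1, an ATP-gated channel best known from smooth muscle and platelets, had 0, 0.525, 4.14 and 1.20 FPKM in LCM_GFP, against 5.99 to 8.81 FPKM in FACS_GFP and 3.64 to 5.63 FPKM in FACS_WT. It was called lower against FACS_GFP, by -2.07 (adjusted p = 0.0321, limma), while its captured library 3 overlapped FACS_WT (-1.44, adjusted p = 0.0914). P2rx3, the sensory neuron channel, averaged 0.345 ± 0.342 FPKM in LCM_GFP, 0.464 ± 0.515 FPKM in FACS_GFP and 0.270 ± 0.313 FPKM in FACS_WT (SD, n = 4, 3 and 3), below the filter.

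Of 9 P2Y and related receptor genes 2 were tested. Lpar6, a lysophosphatidic acid receptor gene, had 15.5, 63.9, 86.6 and 24.5 FPKM in LCM_GFP, against 119 to 135 FPKM in FACS_GFP and 90.5 to 103 FPKM in FACS_WT. Its captured libraries all lay below the sorted ones, at -1.70 (adjusted p = 0.0597, limma) and -1.32 (adjusted p = 0.124). Gpr17, known from oligodendrocyte precursors, had 2.79, 9.71, 0.201 and 7.15 FPKM in LCM_GFP and was listed at 0 in all 6 sorted libraries; it was called higher in both comparisons, with adjusted p of 0.0487 against FACS_GFP and 0.0481 against FACS_WT. Gpr17 passed the filter only through captured libraries, so a call as higher was the only one open to it. The Gpr17 call was lost under median ratio scaling in both comparisons and under quantile normalization against FACS_GFP.

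Of the 3 other adenosine receptor genes, Adora1 moved opposite to Adora3. Adora1, the A1 receptor gene expressed widely in neurons, had 2.94, 31.6, 35.8 and 23.9 FPKM in LCM_GFP, against 0.848 to 1.58 FPKM in FACS_GFP and 0.396 to 1.35 FPKM in FACS_WT. The captured libraries all lay above the sorted ones, library 1 by the least, and the log2 difference was 3.14 (adjusted p = 0.0212, limma) and 3.27 (adjusted p = 0.0185). Adora2a, another adenosine receptor gene, had 8.95, 0.0293, 0 and 1.39 FPKM in LCM_GFP and was listed at 0 in all sorted libraries. It did not reach the filter.

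Of 13 other genes listed by family as nucleotide hydrolases, 6 were tested and 1 was called. What the listed enzymes act on was not examined. Enpp2, which encodes the secreted enzyme autotaxin and is high in oligodendrocytes, had 111, 255, 238 and 202 FPKM in LCM_GFP, against 0.407 to 1.69 FPKM in FACS_GFP and 1.64 to 6.15 FPKM in FACS_WT. Its log2 difference was 6.78 (adjusted p = 9.9e-05, limma) against FACS_GFP and 5.40 (adjusted p = 0.000307) against FACS_WT. Enpp1, an ATP-hydrolysing surface enzyme gene, averaged 11.007 ± 7.88 FPKM in LCM_GFP, 12.3 ± 0.880 FPKM in FACS_GFP and 16.1 ± 2.45 FPKM in FACS_WT, with overlap in both comparisons. Nt5e, which encodes the enzyme CD73 that turns AMP into adenosine and was picked out after its values were seen, averaged 0.961 ± 1.63 FPKM in LCM_GFP, 0.0958 ± 0.0723 FPKM in FACS_GFP and 0.101 ± 0.00701 FPKM in FACS_WT. Its captured mean rested on captured library 4, at 3.40 FPKM, and every other library was under 1 FPKM, so Nt5e did not reach the filter.

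For adenosine uptake and use, 5 of 8 genes were tested and 1 was called. Slc29a3, a nucleoside transporter gene of lysosomes, had 2.93, 35.5, 32.9 and 8.27 FPKM in LCM_GFP, against 140 to 153 FPKM in FACS_GFP and 161 to 189 FPKM in FACS_WT. It was lower by -3.32 (adjusted p = 0.0152, limma) and -3.57 (adjusted p = 0.0111), a larger fall than that of any of the 8 genes. On the microglial scale Slc29a3 differed by -1.74 from FACS_GFP (adjusted p = 0.0662) and by -1.87 from FACS_WT (adjusted p = 0.0486). Slc29a1, the cell surface nucleoside transporter gene, averaged 22.3 ± 7.13 FPKM in LCM_GFP, 45.7 ± 6.78 FPKM in FACS_GFP and 41.9 ± 9.27 FPKM in FACS_WT, and was not called (adjusted p = 0.0815 and 0.132).

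For nucleotide release, Panx2, a pannexin channel gene of the brain, had 17.4, 13.002, 9.03 and 11.3 FPKM in LCM_GFP and at most 0.0247 FPKM in any sorted library. It was called higher, by 3.72 (adjusted p = 0.000543, limma) and 3.73 (adjusted p = 0.000605). Panx2 passed the filter only through captured libraries, so it could not have been called lower. Slc17a9, which loads ATP into vesicles, had 32.4, 0.0866, 0 and 1.35 FPKM in LCM_GFP, against 9.75 to 10.1 FPKM in FACS_GFP and 10.6 to 17.0 FPKM in FACS_WT. Captured library 1 was above all other libraries and the remaining 3 below, and Slc17a9 was not called (adjusted p = 0.254 and 0.159).

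Downstream of P2X7, 2 of 5 inflammasome genes were called lower. Nlrp3, the sensor that P2X7 activates, had 15.8, 8.65, 2.88 and 2.04 FPKM in LCM_GFP, against 39.3 to 43.0 FPKM in FACS_GFP and 35.9 to 44.2 FPKM in FACS_WT, at -2.66 (adjusted p = 0.0169, limma) and -2.65 (adjusted p = 0.0173). Il18, a cytokine cut by caspase-1, had 1.504, 3.83, 1.21 and 3.72 FPKM in LCM_GFP, against 21.2 to 24.7 FPKM in FACS_GFP and 22.7 to 29.8 FPKM in FACS_WT, at -2.82 (adjusted p = 0.00346) and -3.01 (adjusted p = 0.00274). Both genes were lower in every captured library. The adaptor gene Pycard and the protease gene Casp1 also had all captured libraries below the sorted ones and were not called, at -2.35 (adjusted p = 0.0872) and -2.71 (adjusted p = 0.0802) against FACS_GFP. On the microglial scale Il18 and Nlrp3 were at -1.40 and -1.12 against FACS_GFP and neither was called.

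Downstream of P2Y12, Gnb1, a G protein beta subunit gene expressed in most cells, had 406, 469, 324 and 294 FPKM in LCM_GFP, against 98.3 to 125 FPKM in FACS_GFP and 90.8 to 109 FPKM in FACS_WT, and was called higher by 1.75 (adjusted p = 0.00276, limma) and 1.88 (adjusted p = 0.00212). Kcnk13, which encodes the THIK-1 potassium channel of microglia, had 1.93, 6.83, 3.28 and 2.06 FPKM in LCM_GFP, against 9.07 to 10.9 FPKM in FACS_GFP and 10.6 to 17.97 FPKM in FACS_WT. It was called lower against FACS_WT (-1.74, adjusted p = 0.0355) and not against FACS_GFP (-1.43, adjusted p = 0.0573). Gnai2, the inhibitory G protein subunit through which P2Y12 signals, averaged 50.4 ± 15.6 FPKM in LCM_GFP, 77.6 ± 9.48 FPKM in FACS_GFP and 76.9 ± 1.11 FPKM in FACS_WT and was not called.

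The calls of Adora1, Enpp2, Panx2 and Gnb1 as higher held in both comparisons under median ratio scaling, quantile normalization and scaling to microglial genes. Of the lower ones, Il18 and Slc29a3 were called under median ratio scaling and quantile normalization in both comparisons. Scaled to microglial genes, 0 of 26 purinergic genes tested were called lower against FACS_GFP and 1 of 27, Slc29a3, against FACS_WT. On that scale 3.11% and 2.76% of all genes tested were called lower.

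**Figure D4:**
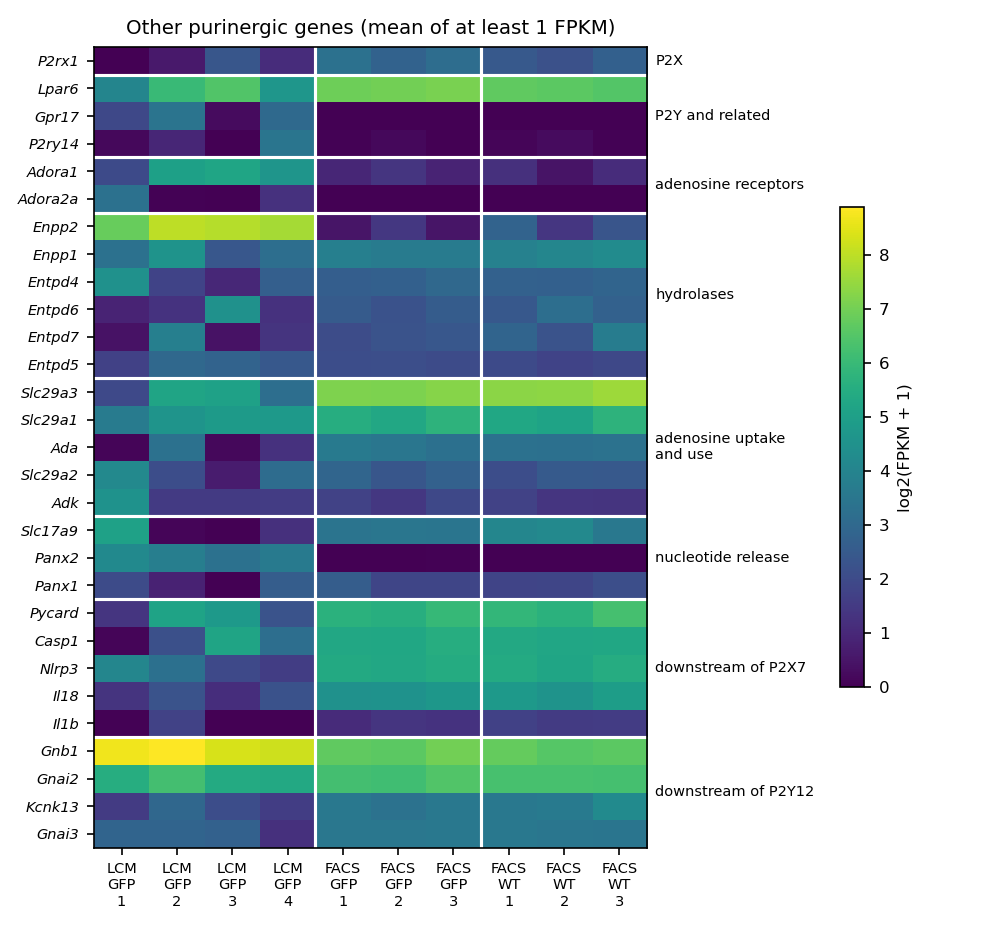
Levels of the other purinergic genes with a mean of at least 1 FPKM, as log2(FPKM + 1) (colour), with genes grouped by role down the page and libraries across (LCM GFP, FACS GFP and FACS WT from left to right). Enpp2, Panx2, Adora1 and Gnb1 are brighter in captured libraries, and Slc29a3, Nlrp3 and Il18 in sorted ones.

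The genes most like each member were found from the root mean square difference of log2(FPKM + 1) profiles over the 10 libraries, each profile taken less its own mean, among 9823 genes with a mean of at least 5 FPKM. Nearest to P2ry12 were Lpin2 (0.11), Gstcd (0.13), Dhx57 (0.14), Tlr7 (0.15) and Sall1 (0.15); Sall1 encodes a transcription factor of microglia and Tlr7 a receptor for single-stranded RNA. Sall1 averaged 83.6 FPKM in LCM_GFP, 195 FPKM in FACS_GFP and 197 FPKM in FACS_WT. For P2ry13 they were Arih1 (0.09) and Tram1 (0.10), for P2ry6 Ddb2 (0.13) and Cttnbp2nl (0.15), for P2rx7 Paqr3 (0.10) and Fam102b (0.11), and for Gpr34 Fermt3 (0.18) and Selplg (0.19). The nearest genes were farther away for Entpd1, with Atp13a1 (0.25) and Arglu1 (0.26), for P2rx4, with Ggh (0.30) and Mettl21a (0.35), and for Adora3, with A630033H20Rik (0.35) and 9030625A04Rik (0.40). All profiles share the same libraries, and the likeness is a description with no test.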

How the data were processed

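The analysis began from gene FPKM values that the authors deposited for 37447 genes in 10 libraries, named per the file headers as Cufflinks normalized expression values. Per the submitters' processing notes, CASAVA 1.8.2, TopHat2 2.0.4, Bowtie2 2.0.0, Cufflinks 2.0.2 and mm9 were used; strand handling and the treatment of multiply mapped fragments are not given in the sources used here. A second table deposited by the authors holds a log2 fold change (a score per gene), p-value and q-value for each pair of groups. Read counts are not given. Steps between low FPKM of single-exon genes implied 32700000 to 39100000 fragments in captured and 48800000 to 67400000 in sorted libraries, but only 39.6% to 48.3% of these values came within 0.1 of a whole number of steps, so no counts were recovered and no counting intervals were computed.

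A minimum of 1 FPKM in 3 or more of the compared libraries was required. Genes near 0 in 1 group could pass only through the other group, and could be called in that direction only. The test was limma 3.58.1 (R 4.3.3, statmod 1.5.0; trend and robust) on log2(FPKM + 1), fitting only the 2 groups compared, after the code was tested on simulated data. Fold changes on this scale understate changes of low genes. An FPKM of 0 can be a failed estimate and is described as listed at 0. P-values measure the spread between libraries labelled biological replicates. The alternatives were other pseudocounts, filters, scalings, weights, blocks and left-out libraries. Other steps used Python 3.11.15, with figures from matplotlib 3.10.9.

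The members, gene lists, naming rule and alternatives were chosen with earlier results of these data known. Named beside the 8 members are the 2 highest genes of each purinergic list, called genes of lists with 5 or fewer calls, the nearest profiles, and overlapping genes. Promoters and gene symbols came from RefSeq GRCm38.p6 and strands from GENCODE M21; no mm9 coordinate was converted.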

Additional observations from a re-analysis of the deposited data

How the results depend on the processing

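The count of 7 genes called lower against FACS_GFP became 3 with no filter, 1 under median ratio scaling, 4 under quantile normalization, 0 when scaled to microglial genes and 4 with sex as a covariate. Against FACS_WT the count of 7 became 4 with no filter, 0 under median ratio scaling, 4 under quantile normalization, 0 when scaled to microglial genes and 0 with sex as a covariate. Leaving out each library in turn gave 0 to 7 in both comparisons, with 0 without any 1 sorted library and 4 against FACS_GFP without captured library 4. These fits called 2.39% to 26.1% of all genes lower against FACS_GFP and 2.57% to 25.0% against FACS_WT. With the replicate number as a block the counts were 2 and 4. Deviations of same-numbered libraries from their group means had correlations between -0.04 and 0.01 in the LCM comparisons. Between the sorted groups these correlations were 0.14, 0.01 and 0.21. Differently numbered libraries were not compared, so these values cannot show whether the numbers pair the samples. Pseudocounts of 0.1 and 5 gave 5 and 7 genes against FACS_GFP and 6 and 7 against FACS_WT. The shares of all genes called lower were then 16.0% and 21.9% against FACS_GFP and 15.5% and 20.8% against FACS_WT. Over all genes, the share called lower against FACS_GFP was 19.6% in the reported fit, 11.7% with no filter, 9.17% under median ratio scaling, 13.4% under quantile normalization, 3.11% scaled to microglial genes, 16.0% with sex and 14.4% with the block. Against FACS_WT these shares were 19.1%, 11.4%, 9.11%, 13.2%, 2.76%, 6.54% and 14.2% in the same order. The count between sorted groups was 0 under every alternative run, in both directions. Variance weights per group and 1 fit over all libraries left both counts at 7. With the weights 24.7% of all genes were called lower against FACS_GFP and 23.8% against FACS_WT, and with 1 fit 28.0% and 27.8%. Fits without a library rest on fewer samples. The cause of any of these losses was not tested.

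Directions reversed when scaled to microglial genes, against FACS_GFP for P2ry12 (0.37), P2ry13 (0.55), P2rx7 (0.13), Gpr34 (0.11), the second Adora3 row (0.50) and Entpd1 (0.96), and against FACS_WT for P2ry12 (0.53), P2ry13 (0.62), P2rx7 (0.10), the second Adora3 row (1.09) and Entpd1 (0.67). The second Adora3 row against FACS_WT also reversed at a pseudocount of 5 (0.0045), under median ratio scaling (0.19), quantile normalization (0.082) and the replicate block (0.39), and ranged from -0.97 to 0.39 with 1 library left out. Between FACS_GFP and FACS_WT, small differences changed sign for P2ry6 (-0.0200 under quantile normalization, -0.0338 with sex, and -0.0200 to 0.0552 with 1 library left out), P2ry13 (0.0738 scaled to microglial genes) and P2rx4 (0.0467 scaled to microglial genes, and -0.14 to 0.0218 with 1 library left out). Depth is only implied, so a limit for low values such as Adora3 in captured library 4 was not computed.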
